A study of Mus musculus with 30 samples.

Results

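COMPASS complexes are the enzymes that methylate lysine 4 of histone H3, and the 10 genes described here encode subunits of them. They were picked by gene name, with no threshold on a measured value, and all 10 were present among the 12428 genes of the table. The study placed GRHL2-ERT, a fusion of the epithelial transcription factor GRHL2 to a tamoxifen-controlled estrogen receptor domain, in naive mouse embryonic stem cells (ESCs, cell line C57BL/6J x 129) and read mRNA by sequencing 3′ ends. All cells were labelled as Kmt2c knockouts. Cells labelled Kmt2cKO; Kmtd fl/fl;GRHL2-ERT (called Kmt2c-KO here, with the label's spelling of the floxed Kmt2d allele) and cells labelled Kmt2cKO; Kmt2dKO;GRHL2-ERT (double-KO) were given either ethanol or tamoxifen and harvested after 8 h or 16 h. Cells labelled Kmt2cKO; Kmtd fl/fl, without the transgene, were given tamoxifen for the same times, and ethanol-treated transgene-free cells were not analysed here. Each of the 10 groups had 3 libraries, 30 in all. Ethanol and tamoxifen were compared to ask what nuclear GRHL2 does, and the lines to ask what depends on KMT2D.

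Mammalian COMPASS complexes share a core of WDR5, RBBP5, ASH2L and DPY30, which holds and stimulates a catalytic subunit. KMT2A and KMT2B (MLL1 and MLL2) are catalytic subunits that act mainly at promoters, and KMT2C and KMT2D (MLL3 and MLL4) place monomethylated H3K4 at enhancers. The KMT2C and KMT2D complexes also carry KDM6A (UTX), a demethylase of H3K27, the coactivator NCOA6 and PAXIP1 (PTIP). In ESCs, KMT2D is the main enhancer H3K4 monomethyltransferase and is needed for cells to change state, while naive cells can be kept in culture without it.

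The lines were grown in serum with LIF and inhibitors of MEK and GSK3, and transgenic clones had been picked for similar GRHL2 levels, so genotype and clone cannot be told apart. The exons deleted from Kmt2c and Kmt2d are not given in the sources used here. Tags come from the 3′ end of a transcript, so tags of Kmt2c or Kmt2d in a knockout line do not by themselves verify or contradict the knockout. Nothing says whether the 3 libraries of a group came from separate cultures, so the p-values measure the spread between these libraries, which may be technical.

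Library depth, recovered from the steps in the deposited values, ran from 8.86 to 22.0 M (mega) reads with a median of 16.2 M reads, so that 3 reads were worth 0.136 to 0.339 CPM (counts per M reads in the library). All 10 naive ESC marker genes were measured, and their summed level was 2304 to 4976 CPM. Rn45s, the ribosomal RNA precursor, took 3.10% to 7.40% of counts at 8 h and 1.85% to 2.61% at 16 h. Replicate 2 of the double-KO tamoxifen 8 h libraries stood apart, with the lowest depth, 8.86 M reads, and a correlation of 0.938 with the others of its group. It was kept, and fits without it are given beside the results that it moved most. Of 6 primitive endoderm genes, 4 were measured (Gata4, Gata6, Pdgfra and Dab2), and their sum was 17.0 to 40.8 CPM in double-KO, 0.900 to 5.04 CPM in Kmt2c-KO and 1.36 to 5.39 CPM in transgene-free libraries. Of 6 trophoblast genes, 3 were measured (Eomes, Gata3 and Tfap2c), with a sum of 60.3 to 114 CPM at 8 h and 29.996 to 62.5 CPM at 16 h. Of 7 fibroblast genes, 3 were measured (Col1a1, Col1a2 and Thy1), with a sum of 1.59 to 5.64 CPM in double-KO and 0 to 2.44 CPM in Kmt2c-KO libraries. The part of these markers, of Rn45s and of depth in the results below was not tested. In bulk RNA, fewer cells of a type and less RNA per cell cannot be told apart.

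The 10 genes lie on 8 chromosomes of mm10. The catalytic genes are Kmt2a at chr9:44803355-44881296, Kmt2b at chr7:30568858-30588726, Kmt2c at chr5:25271798-25498783 and Kmt2d at chr15:98831669-98871204, all on the minus strand. The genes of the KMT2C and KMT2D complexes are Kdm6a at chrX:18162575-18279936 on the plus strand, and Ncoa6 at chr2:155390656-155473894 and Paxip1 at chr5:27740080-27791691 on the minus strand. The core genes are Wdr5 at chr2:27515157-27536535 on the plus strand, and Ash2l at chr8:25815996-25847694 and Dpy30 at chr17:74299474-74323944 on the minus strand. No other annotated gene overlapped the sequence within 1000 bases of the 3′ end of any of them. Small antisense or pseudogene entries lie inside Kmt2a, Kmt2c and Ncoa6, and Kdm6a has a close copy on the Y chromosome, Uty, so read assignment between Kdm6a and Uty is uncertain.

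The 250 bases before the annotated start are shown for Kmt2c and Kmt2d, the genes the genotypes concern, and for Kmt2a and Dpy30, the members that fell and rose most between 8 h and 16 h. They are minus-strand sequences of GRCm38.p6 from RefSeq, 5′ to 3′, at chr9:44881290-44881539, chr5:25498784-25499033, chr15:98871206-98871455 and, for the outermost of 4 annotated starts of Dpy30, chr17:74323945-74324194. Capitals mark the GC box GGGCGG, the core of Sp-family sites, on either strand (CCGCCC on the strand shown), and neighbouring matches can share bases.
Kmt2a: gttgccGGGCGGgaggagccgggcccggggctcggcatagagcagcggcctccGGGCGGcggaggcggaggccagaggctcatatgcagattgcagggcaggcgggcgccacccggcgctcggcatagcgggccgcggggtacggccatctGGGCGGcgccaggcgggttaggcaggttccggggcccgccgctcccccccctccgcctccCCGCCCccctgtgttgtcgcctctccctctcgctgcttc
Kmt2c: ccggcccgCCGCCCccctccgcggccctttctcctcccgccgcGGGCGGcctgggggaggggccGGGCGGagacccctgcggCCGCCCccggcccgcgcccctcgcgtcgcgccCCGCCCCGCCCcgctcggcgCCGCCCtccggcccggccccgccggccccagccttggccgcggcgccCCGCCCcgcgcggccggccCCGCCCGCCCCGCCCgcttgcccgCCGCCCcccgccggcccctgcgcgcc
Kmt2d: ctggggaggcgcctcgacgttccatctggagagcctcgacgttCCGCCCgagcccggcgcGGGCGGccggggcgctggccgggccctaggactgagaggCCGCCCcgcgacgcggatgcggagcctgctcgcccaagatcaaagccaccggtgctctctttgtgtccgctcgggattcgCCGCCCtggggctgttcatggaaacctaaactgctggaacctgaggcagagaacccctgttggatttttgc
Dpy30: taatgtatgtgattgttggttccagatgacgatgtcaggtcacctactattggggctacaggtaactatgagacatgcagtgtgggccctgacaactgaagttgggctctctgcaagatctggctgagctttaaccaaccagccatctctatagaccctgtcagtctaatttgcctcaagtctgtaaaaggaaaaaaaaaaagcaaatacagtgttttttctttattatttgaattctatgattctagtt
The GC box occurred 12 times in the Kmt2c window and 4 times in each of the Kmt2a and Kmt2d windows, and not in that of Dpy30 or at its 3 other starts. Of all 27025 windows of this length in the RefSeq table, 32.9% held it on either strand. The Kmt2c window was 91.6% G and C with 48 CpG sites, against 76.8% and 29 CpG sites for Kmt2a, 67.6% and 26 for Kmt2d, and a median of 52% over all windows. The Dpy30 window shown was 40% G and C, and those at its 3 other starts were 66% to 71.6%. The Grainyhead palindrome AACCGGTT, searched because GRHL2 was the factor induced, was in 0 of the 8 members that had a RefSeq window and in 0.122% of all windows. Its shorter form CNGGTT, part of the palindrome, was on either strand in 4 of the 8 (2 matches each for Kmt2a and Kdm6a, 1 each for Kmt2d and Dpy30) and in 33.7% of all windows. These are descriptions of letters in a window, and windows for Kmt2b and Ash2l were not used here.

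Kmt2c, catalytic subunit and the gene deleted in every line, kept 9.47 to 32.8 CPM of 3′ tags in the 30 libraries. At 8 h it measured 29.6, 26.2 and 32.6 CPM in double-KO ethanol, 24.8, 19.8 and 26.0 CPM in double-KO tamoxifen, 17.7, 24.1 and 16.9 CPM in Kmt2c-KO ethanol, 26.0, 32.8 and 21.7 CPM in Kmt2c-KO tamoxifen, and 17.996, 15.8 and 13.1 CPM in transgene-free libraries. At 16 h it measured 18.5, 18.8 and 19.3 CPM in double-KO ethanol, 19.95, 22.9 and 22.0 CPM in double-KO tamoxifen, 11.98, 10.3 and 11.4 CPM in Kmt2c-KO ethanol, 13.0, 11.3 and 11.2 CPM in Kmt2c-KO tamoxifen, and 9.47, 12.9 and 11.1 CPM without the transgene. The 6 double-KO libraries at 16 h were all above the 9 others of that time. At 16 h 53.8% (ethanol) and 49.3% (tamoxifen) of all genes were higher in double-KO than in Kmt2c-KO without overlap. For Kmt2c at 8 h the lines overlapped under tamoxifen. From high to low, the group means were 29.5 ± 3.22, 26.8 ± 5.56 and 23.5 ± 3.32 CPM (SD, n = 3) for double-KO ethanol, Kmt2c-KO tamoxifen and double-KO tamoxifen at 8 h, then 21.6 ± 1.53 CPM for double-KO tamoxifen at 16 h. These were followed by Kmt2c-KO ethanol at 8 h (19.6 ± 3.93 CPM), double-KO ethanol at 16 h (18.9 ± 0.396 CPM) and transgene-free cells at 8 h (15.7 ± 2.44 CPM). Kmt2c-KO tamoxifen, Kmt2c-KO ethanol and transgene-free cells at 16 h came last, at 11.8 ± 0.995, 11.2 ± 0.839 and 11.2 ± 1.73 CPM. Each mean lay within the summed SDs of its neighbour in this order, except on both sides of the transgene-free cells at 8 h.

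Kmt2d, the catalytic gene deleted in the double-KO line, was at 15.2, 23.4 and 16.1 CPM in Kmt2c-KO ethanol libraries at 8 h, the highest group, and at 14.2, 9.88 and 10.4 CPM in Kmt2c-KO tamoxifen libraries. Double-KO libraries at 8 h held 9.69, 13.6 and 5.77 CPM with ethanol and 7.77, 7.79 and 6.30 CPM with tamoxifen, and transgene-free libraries held 8.76, 13.6 and 7.70 CPM. At 16 h all 15 libraries lay between 6.13 and 10.8 CPM: 9.07, 8.81 and 8.49 CPM in Kmt2c-KO ethanol, 8.78, 10.5 and 7.02 CPM in Kmt2c-KO tamoxifen, 8.18, 8.13 and 6.62 CPM in double-KO ethanol, 10.8, 7.14 and 9.70 CPM in double-KO tamoxifen, and 6.13, 6.88 and 7.71 CPM without the transgene. Tags of Kmt2d thus remained in the double-KO line, below Kmt2c-KO without overlap in ethanol at both times and in tamoxifen at 8 h, and overlapping it in tamoxifen at 16 h. Over all genes, these 2 lines did not overlap for 53.1% and 69.7% in ethanol (8 h and 16 h) and 44.2% and 63.4% in tamoxifen. In ethanol at 16 h the Kmt2d gap was small, from 8.18 to 8.49 CPM. The transgene-free libraries, also with floxed Kmt2d, overlapped the double-KO ones at both times. From high to low, the group means were 18.2 ± 4.49 CPM (SD, n = 3) for Kmt2c-KO ethanol, 11.5 ± 2.36 for Kmt2c-KO tamoxifen, 10.0 ± 3.14 for transgene-free and 9.70 ± 3.94 for double-KO ethanol, all at 8 h. Below these came the 16 h groups and double-KO tamoxifen at 8 h, between 9.20 ± 1.87 and 6.91 ± 0.788 CPM, and each neighbouring pair of means in the order lay within its summed SDs.

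Over the 10 group means, the genes most like Kmt2c were Inip (Pearson r = 0.984), Fbrs (0.982) and Zfyve27 (0.977), and those most like Kmt2d were Samd15 (0.945), Tmem106a (0.895) and Hemk1 (0.888). These are descriptions over 10 points that share line, treatment and time.

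**Figure D1:**
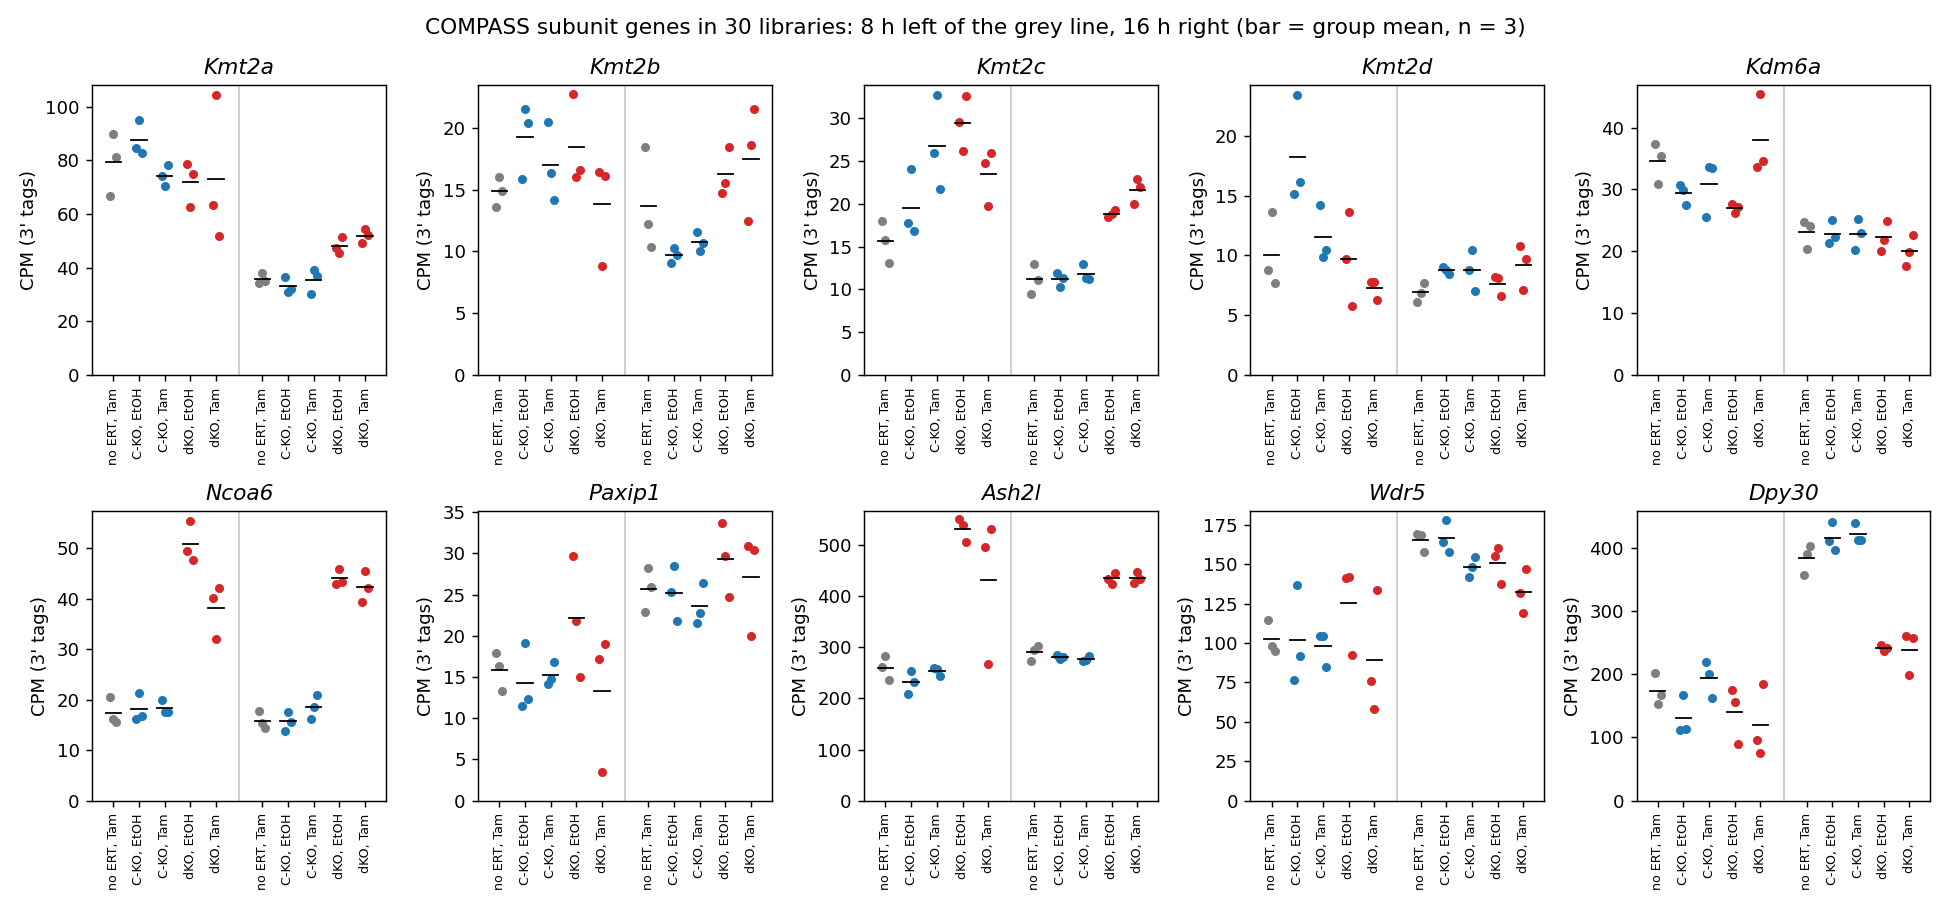
Levels of the 10 COMPASS subunit genes in CPM, on linear axes from 0; each point is 1 of the 30 libraries, bars are means of the 3 libraries of a group, 8 h groups stand left of the grey line and 16 h groups right (grey, no GRHL2-ERT; blue, Kmt2c-KO; red, double-KO). Ncoa6 in the 12 double-KO libraries (32.0 to 55.4 CPM) lies above the 18 others (13.9 to 21.4 CPM), and Kmt2a is lower and Dpy30 higher at 16 h. The share of all genes separated as Ncoa6 is was not counted.

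The double-KO and Kmt2c-KO lines were compared at each treatment and time, which asks how cells with and without Kmt2d differ in the same medium. Ncoa6 and Ash2l were higher in double-KO in every condition, Dpy30 was lower in 3 of the 4, and Kmt2a and Kmt2b passed the test, as higher, at 16 h. The test was limma on log2(CPM + 1) over all 30 libraries, two-sided, with Benjamini-Hochberg adjustment over 12414 genes and a call at an adjusted p under 0.05. All 10 genes passed the filter on low values. At 8 h in ethanol 3 of the 10 were called higher and 1 lower, where 49.4% of all genes were called in either direction, and at 8 h in tamoxifen 2 were higher and 2 lower, against 44.5%. At 16 h there were 5 higher and 1 lower in ethanol, against 50% of all genes, and 5 higher and 1 lower in tamoxifen, against 51.3%. Over the average of the 4 conditions 3 were higher and 2 lower, against 72.4%. These counts are near the background, and on average below it. The median difference of all genes was itself above 0 (0.31, 0.35, 0.18 and 0.35 on the log2 scale, ethanol 8 h and 16 h, then tamoxifen 8 h and 16 h), and the members' medians were 0.19, 0.37, −0.19 and 0.36. A median-of-ratios scaling, which sets libraries equal at their typical gene and so removes that shift, gave 2 higher and 3 lower in ethanol at 8 h (42.2% of all genes called), 1 and 3 in ethanol at 16 h (41.5%), 2 and 3 in tamoxifen at 8 h (40.6%), 2 and 3 in tamoxifen at 16 h (43%) and 3 and 4 on average (65.7%). Log2 differences below are on the log2(CPM + 1) scale, which understates the change of low genes.

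Among the catalytic genes, Kmt2a measured 47.3, 45.6 and 51.6 CPM in double-KO ethanol libraries at 16 h and 36.7, 30.9 and 32.1 CPM in Kmt2c-KO ethanol libraries. With tamoxifen at 16 h it measured 49.3, 54.2 and 52.2 CPM in double-KO against 30.1, 39.0 and 36.9 CPM in Kmt2c-KO. The lines did not overlap at 16 h, where 53.8% (ethanol) and 49.3% (tamoxifen) of all genes were also higher in double-KO without overlap. The Kmt2a differences were 0.52 ± 0.16 (log2, SE, adjusted p = 0.0086, limma) and 0.55 ± 0.16 (adjusted p = 0.0059). At 8 h the differences of Kmt2a were −0.28 ± 0.16 (adjusted p = 0.15) in ethanol and −0.08 ± 0.16 (adjusted p = 0.7) in tamoxifen. Without replicate 2 of the double-KO tamoxifen 8 h libraries, which held 104 CPM of Kmt2a against 63.3 and 51.6 CPM in the 2 others, the latter was −0.37 with an adjusted p of 0.021. Median-of-ratios scaling put Kmt2a at 0.16 (adjusted p = 0.48) and 0.17 (adjusted p = 0.46) at 16 h and at −0.59 (adjusted p = 0.0070) in ethanol at 8 h, so the time with a call differed between the scalings.

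Kmt2b measured 14.7, 15.5 and 18.4 CPM in double-KO and 9.07, 10.2 and 9.71 CPM in Kmt2c-KO ethanol libraries at 16 h, and 12.5, 18.6 and 21.5 CPM against 11.6, 10.1 and 10.6 CPM with tamoxifen. All 6 double-KO values were above all 6 of Kmt2c-KO. Within ethanol and within tamoxifen at 16 h, 53.8% and 49.3% of all genes were likewise higher without overlap. The Kmt2b differences were 0.69 ± 0.22 (adjusted p = 0.010, limma) and 0.62 ± 0.22 (adjusted p = 0.018). The ethanol call was lost without replicate 3 of double-KO ethanol 16 h (0.60, adjusted p = 0.050). The tamoxifen call was lost without replicate 2 of Kmt2c-KO tamoxifen 16 h or without replicate 2 or 3 of double-KO tamoxifen 16 h (0.47 to 0.58, adjusted p = 0.055 to 0.11). Both were lost with median-of-ratios scaling (0.34, adjusted p = 0.19, and 0.26, adjusted p = 0.32). At 8 h Kmt2b overlapped between the lines, and the average over 4 conditions was 0.23 ± 0.11 (adjusted p = 0.056), or 0.30 (adjusted p = 0.0056) without the library that stood apart.

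Kmt2c was higher in double-KO by 0.58 ± 0.16 (adjusted p = 0.0040, limma) in ethanol at 8 h, by 0.70 ± 0.16 (adjusted p = 0.00064) in ethanol at 16 h and by 0.82 ± 0.16 (adjusted p = 0.00011) in tamoxifen at 16 h, and its average over 4 conditions was 0.48 ± 0.08 (adjusted p = 5.1e-06). In tamoxifen at 8 h the value was −0.17 ± 0.16 (adjusted p = 0.40). With median-of-ratios scaling the values of Kmt2c were 0.28 (adjusted p = 0.16), 0.36 (adjusted p = 0.069) and 0.45 (adjusted p = 0.020), and the average was 0.18 (adjusted p = 0.046). Kmt2d was lower in double-KO by −0.89 ± 0.23 (adjusted p = 0.0025) in ethanol at 8 h, where the lowest Kmt2c-KO library (15.2 CPM) exceeded the highest double-KO one (13.6 CPM). In tamoxifen at 8 h it was −0.58 ± 0.23 (adjusted p = 0.043), and this call was lost without replicate 1 or 3 of either group (−0.64 to −0.43, adjusted p = 0.055 to 0.19). At 16 h the Kmt2d differences were −0.18 ± 0.23 (adjusted p = 0.53) and 0.06 ± 0.23 (adjusted p = 0.84), and over the 4 conditions the average was −0.40 ± 0.12 (adjusted p = 0.0033), or −0.69 with median-of-ratios scaling.

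Among the genes of the KMT2C and KMT2D complexes, Ncoa6, a nuclear receptor coactivator, differed most. Ethanol libraries at 8 h held 49.5, 55.4 and 47.8 CPM in double-KO and 16.2, 21.4 and 16.7 CPM in Kmt2c-KO, and those at 16 h held 43.0, 46.0 and 43.4 CPM against 13.9, 17.6 and 15.7 CPM. Tamoxifen libraries held 40.1, 32.0 and 42.2 CPM against 20.01, 17.6 and 17.7 CPM at 8 h, and 39.4, 45.6 and 42.1 CPM against 16.1, 18.5 and 20.9 CPM at 16 h. Transgene-free libraries held 20.5, 16.2 and 15.6 CPM at 8 h and 17.9, 15.4 and 14.4 CPM at 16 h. The 12 double-KO libraries, from 32.0 to 55.4 CPM with a median of 43.2 CPM, stood wholly above the 18 libraries of the 2 lines with floxed Kmt2d, from 13.9 to 21.4 CPM with a median of 17.2 CPM. The share of all genes separated in that way was not counted. Between double-KO and Kmt2c-KO alone, 39.5% and 53.8% of all genes were higher without overlap in ethanol (8 h and 16 h). In tamoxifen 30.7% and 49.3% were. The Ncoa6 differences were 1.45 ± 0.14 (adjusted p = 2.4e-09, limma), 1.44 ± 0.14 (2.3e-09), 1.00 ± 0.14 (1.6e-06) and 1.16 ± 0.14 (1.1e-07) in ethanol 8 h, ethanol 16 h, tamoxifen 8 h and tamoxifen 16 h. Their average was 1.26 ± 0.07 (adjusted p = 2.7e-15), and 0.95 (adjusted p = 2.3e-13) with median-of-ratios scaling.

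Kdm6a, the H3K27 demethylase of the complex, ranged over 26.3 to 27.6 CPM in double-KO and 27.4 to 30.8 CPM in Kmt2c-KO ethanol libraries at 8 h. Its line difference was −0.12 and −0.04 in ethanol (8 h and 16 h) and 0.29 and −0.18 in tamoxifen, none called. In tamoxifen at 8 h double-KO was higher without overlap (adjusted p = 0.09, limma), as were 30.7% of all genes. The average line difference was −0.01 ± 0.07 (adjusted p = 0.90). With median-of-ratios scaling that average was −0.32 (adjusted p = 0.00036), and Kdm6a was called lower in every condition but tamoxifen at 8 h (0.09, adjusted p = 0.65). Paxip1, a scaffold with BRCT domains, overlapped between the lines in every condition and had an average of 0.13 ± 0.18 (adjusted p = 0.53). Its double-KO tamoxifen 8 h libraries held 17.2, 3.50 and 19.1 CPM, and without the 3.50 CPM library the average of Paxip1 was 0.30 (adjusted p = 0.0077).

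Among the core genes, Ash2l, which joins DPY30 to the catalytic subunit, measured 550, 539 and 506 CPM in double-KO and 210, 255 and 233 CPM in Kmt2c-KO ethanol libraries at 8 h. At 16 h in ethanol it measured 434, 424 and 446 CPM against 284, 278 and 280 CPM. With tamoxifen it measured 497, 267 and 532 CPM against 260, 258 and 244 CPM at 8 h, and 425, 448 and 434 CPM against 273, 276 and 283 CPM at 16 h. The lines did not overlap in any condition, although the double-KO library that stood apart (267 CPM) was little above the highest Kmt2c-KO one (260 CPM). Of all genes, 39.5% and 53.8% were higher without overlap in ethanol (8 h and 16 h) and 30.7% and 49.3% in tamoxifen. The Ash2l differences were 1.19 ± 0.14 (adjusted p = 1.2e-07, limma), 0.63 ± 0.14 (0.00066), 0.70 ± 0.14 (0.00024) and 0.65 ± 0.14 (0.00043) in ethanol 8 h, ethanol 16 h, tamoxifen 8 h and tamoxifen 16 h, and the third became 1.02 without that library. With median-of-ratios scaling the average of Ash2l was 0.47 rather than 0.79 ± 0.07 (adjusted p = 9.2e-11), and the 16 h calls were lost (0.26 in both, adjusted p = 0.10 in ethanol and 0.093 in tamoxifen).

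Dpy30, the smallest core subunit, went the other way at 16 h. Ethanol libraries held 247, 237 and 242 CPM in double-KO and 410, 440 and 396 CPM in Kmt2c-KO, and tamoxifen libraries held 261, 199 and 257 CPM against 439, 413 and 412 CPM. Transgene-free cells at 16 h, with 357, 389 and 403 CPM, lay with the Kmt2c-KO line, well above double-KO. The differences were −0.78 ± 0.24 (adjusted p = 0.0094, limma) and −0.83 ± 0.24 (adjusted p = 0.0058). At 8 h the lines overlapped: 175, 157 and 89.0 CPM against 112, 167 and 113 CPM in ethanol, with a difference of 0.07 ± 0.24 (adjusted p = 0.84), and 96.3, 75.8 and 185 CPM against 220, 201 and 162 CPM in tamoxifen. The latter difference, −0.80 ± 0.24 (adjusted p = 0.0089), was lost without replicate 2 of double-KO tamoxifen (−0.53, adjusted p = 0.10). The average for Dpy30 was −0.58 ± 0.12 (adjusted p = 0.00013), and −0.90 with median-of-ratios scaling. Wdr5, the histone-binding core subunit, overlapped between the lines in every condition, with an average of −0.05 ± 0.11 (adjusted p = 0.66), and −0.37 (adjusted p = 0.00072) with median-of-ratios scaling.

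**Figure D2:**
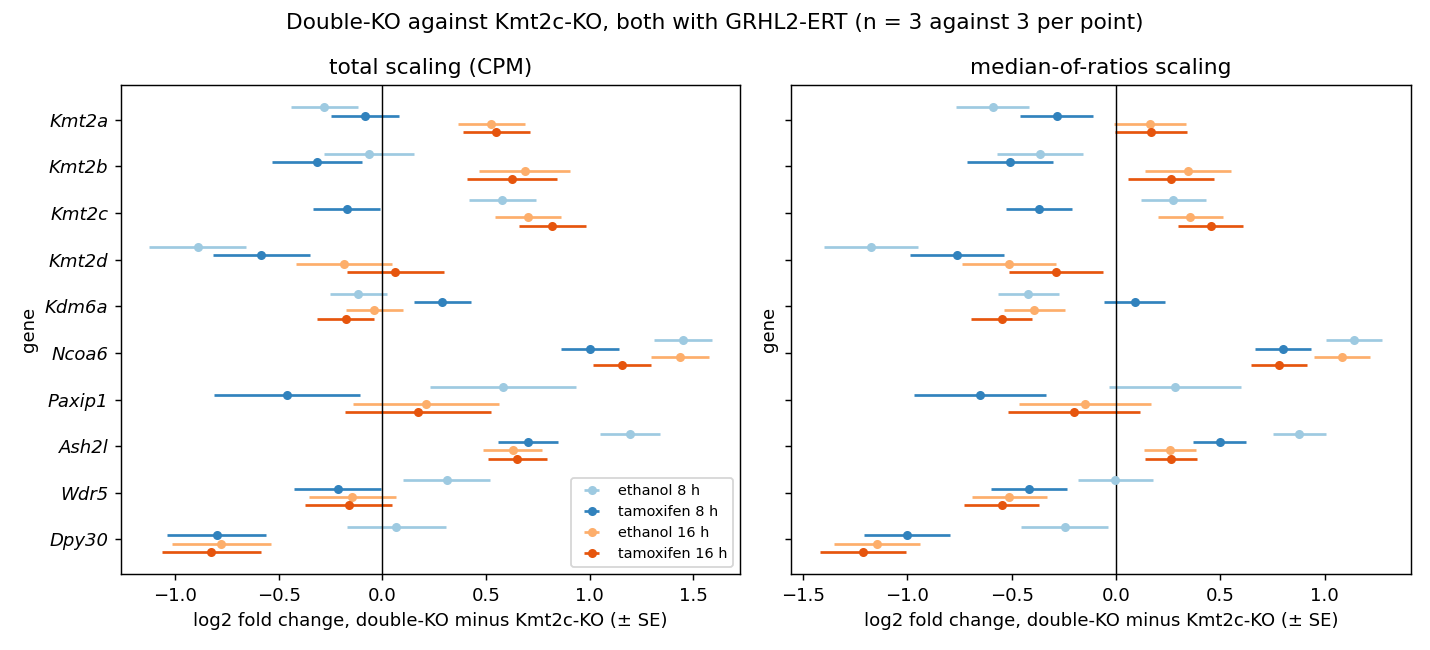
Log2 differences of double-KO minus Kmt2c-KO in the 4 conditions (points, with SE bars, 3 against 3 libraries each), with libraries scaled to their totals on the left and by median of ratios on the right. Ncoa6 lies at 1.00 to 1.45 on the left and 0.78 to 1.14 on the right, and Kmt2a and Kmt2b at 16 h move toward 0 on the right.

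A further list of 15 genes held other COMPASS subunits and related genes that are not themselves subunits, among them Kmt2e and Psip1. On average over the 4 conditions 12 were higher and 1 lower in double-KO, with a median of 0.38 on the log2 scale against 0.30 for all genes, of which 55.1% were called higher and 17.3% lower, and median-of-ratios scaling gave 6 higher and 3 lower. The 4 with the smallest adjusted p were Kmt2e at 0.69 (adjusted p = 1.2e-12, limma), Pagr1a, a partner of PAXIP1, at 0.88 (7.2e-12), Men1 (menin), a partner of KMT2A and KMT2B, at 0.71 (1.5e-09), and Wdr82, a SETD1 complex subunit, at −0.64 (2.4e-09). Of 9 genes for H3K4 demethylases and their partners, 5 were higher and 2 lower (4 and 3 with median-of-ratios scaling), among them Rcor3 at 1.14, Rcor1 at 0.75 and Rcor2 at −0.72. Of 12 enhancer coactivators, 10 were higher and 0 lower (6 and 1 with median-of-ratios scaling), among them the acetyltransferase Crebbp at 1.04, Mediator subunits Med14 at 0.71 and Med1 at 0.62, and the bromodomain gene Brd3 at 0.56. Of the 2 other H3K27 demethylase genes, Kdm6b was at 0.34 and Y-linked Uty at 2.13.

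Tamoxifen was compared with ethanol within each line, which asks whether nuclear GRHL2 moves these genes. None of the 10 passed the limma test in Kmt2c-KO at 8 h, where 4.95% of all genes did, or at 16 h (0.298% of all genes). None passed in double-KO at 8 h (0.0967%) or at 16 h (0.0403%). At an unadjusted p under 0.05 the counts over all genes were 2219, 597, 2520 and 519 of 12414, in that order, and no other tool was run. Kmt2d had the value farthest from 0 in Kmt2c-KO at 8 h, −0.61 ± 0.23 (adjusted p = 0.14), and its 3 tamoxifen libraries (9.88 to 14.2 CPM) lay below its 3 ethanol libraries (15.2 to 23.4 CPM). Those groups did not overlap for 24.4% of all genes. Dpy30 was at 0.58 ± 0.24 (adjusted p = 0.19) and Kmt2c at 0.43 ± 0.16 (adjusted p = 0.13), both with overlapping groups, and without replicate 2 of Kmt2c-KO ethanol 8 h Kmt2c was at 0.59 (adjusted p = 0.043). At 16 h in Kmt2c-KO the values lay between −0.17 (Wdr5) and 0.22 (Ncoa6).

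In double-KO at 8 h the tamoxifen libraries spread widely, replicate 2 standing apart, and the values ran from −0.92 ± 0.35 for Paxip1 (adjusted p = 0.19) to 0.46 ± 0.14 for Kdm6a (adjusted p = 0.14). Kdm6a was at 33.7, 45.5 and 34.6 CPM with tamoxifen and at 27.6, 26.3 and 27.1 CPM with ethanol, without overlap, as were 8.98% of all genes. Leaving out replicate 3 of double-KO tamoxifen 8 h, which leaves the library that stood apart as 1 of 2, brought 6 calls: Kdm6a higher at 0.52, and Paxip1 at −1.31, Wdr5 at −0.88, Dpy30 at −0.65, Ash2l at −0.54 and Ncoa6 at −0.49 lower. That fit called 25.3% of all genes, 7.06% higher and 18.3% lower. Without replicate 2 in place of replicate 3, none of the 10 was called, where 0.0886% of all genes were. The values in that fit were 0.33 for Kdm6a (adjusted p = 0.90), −0.23 for Paxip1 (adjusted p = 1), −0.32 for Kmt2a, −0.30 for Ncoa6, −0.29 for Wdr5, −0.05 for Ash2l and −0.01 for Dpy30. At 16 h in double-KO the values lay between −0.19 (Wdr5) and 0.23 (Kmt2d).

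The difference between the 2 lines' tamoxifen responses was tested directly. No member passed the limma test at 8 h, where 1.43% of all genes did (3090 at an unadjusted p under 0.05), or at 16 h, where 0% did (315 unadjusted). The value of Kmt2c at 8 h, −0.75 ± 0.23 (adjusted p = 0.076), was the nearest to the threshold, and it was −0.90 (adjusted p = 0.028) without replicate 2 of Kmt2c-KO ethanol 8 h. Without replicate 3 of double-KO tamoxifen 8 h, 5 members were lower in the response of double-KO: Paxip1 (−1.42), Dpy30 (−1.23), Wdr5 (−0.86), Kmt2c (−0.82) and Ash2l (−0.67), in a fit that called 24.9% of all genes. Without replicate 2, the library that stood apart, none of the 10 was called (0.806% of all genes), with values of −0.34 for Paxip1 (adjusted p = 0.63), −0.60 for Dpy30 (0.45), −0.26 for Wdr5 (0.73), −0.63 for Kmt2c (0.20) and −0.18 for Ash2l (0.48). Without replicate 3 of double-KO ethanol 8 h, Dpy30 was at −1.16 (adjusted p = 0.034), where 6.02% of all genes were called. Some neighbouring genes were lower with tamoxifen in Kmt2c-KO at 8 h, where 4.95% of all genes were called. They were 2 of 9 H3K4 demethylases and partners, the corepressor genes Rcor2 (−0.63) and Rcor1 (−0.57). Of 12 enhancer coactivators 1 was, the bromodomain gene Brd2 (−0.36). Of the 15 other COMPASS subunits and related genes 1 was, Psip1 (−0.31, adjusted p = 0.029, limma), a call lost with median-of-ratios scaling. No gene of these lists was called higher.

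Kmt2c-KO cells with and without the transgene were compared under tamoxifen, which sets GRHL2-ERT against tamoxifen alone, in different lines whose columns could be told apart only by the treatments listed for each. At 8 h 1 of the 10 was called, Kmt2c, where 4.07% of all genes were. It was at 26.0, 32.8 and 21.7 CPM with GRHL2-ERT and at 17.996, 15.8 and 13.1 CPM without, so the groups did not overlap, with a difference of 0.73 ± 0.16 (adjusted p = 0.0053, limma). These groups did not overlap for 24.4% of all genes. The call on Kmt2c was lost without replicate 3 of the transgene-free libraries (0.62, adjusted p = 0.053) or replicate 2 of the Kmt2c-KO tamoxifen libraries (0.58, adjusted p = 0.072). At 16 h none of the 10 was called, where 0.975% of all genes were (1076 at an unadjusted p under 0.05, limma, and no other tool was run), and the values lay between −0.28 (Kmt2b) and 0.29 (Kmt2d).

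The same line and treatment was then compared between 16 h and 8 h, with the same libraries as in the comparisons above. Averaged over the 5 combinations of line and treatment, 5 of the 10 fell and 3 rose, where 41.6% of all genes fell and 27.2% rose (68.9% in either direction). All 4 catalytic genes and Kdm6a fell, and Paxip1, Wdr5 and Dpy30 rose. The median of the members was −0.18 on the log2 scale and that of all genes −0.10. All 8 calls were present whichever library was left out. Samples of the 2 times also differed in Rn45s and, with a slight overlap, in the trophoblast sum given above. Of the 3 trophoblast genes measured, 1 was called up and 2 down at 16 h on average. With the Rn45s share as a covariate, chosen after seeing the data, the averages of Paxip1 (−0.48) and Wdr5 (−0.00076) changed sign and the call on Kmt2d was lost (−0.56, adjusted p = 0.069, limma). The Rn45s share did not overlap between the times, so that fit cannot tell Rn45s and time apart. Whether the 8 h and 16 h libraries were made or sequenced together is not given in the sources used here, so time and a batch of that kind cannot be told apart.

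Kmt2a fell most. At 8 h the transgene-free libraries held 66.7, 89.99 and 81.1 CPM, the Kmt2c-KO libraries 84.5, 95.1 and 82.9 CPM with ethanol and 74.1, 70.3 and 78.3 CPM with tamoxifen, and the double-KO libraries 78.7, 62.5 and 75.1 CPM with ethanol and 63.3, 104 and 51.6 CPM with tamoxifen. At 16 h the transgene-free libraries held 34.2, 37.9 and 35.0 CPM, and the Kmt2c-KO and double-KO libraries the values given above, from 30.1 to 54.2 CPM. Over all genes, 31.8% (double-KO tamoxifen) to 57.7% (Kmt2c-KO tamoxifen) did not overlap between the times within a combination. For Kmt2a, in 4 of the 5 combinations no 16 h library reached any 8 h library of the same combination. In double-KO with tamoxifen 1 library at 8 h (51.6 CPM) lay among those at 16 h. The average difference was −0.91 ± 0.07 (adjusted p = 2.4e-11, limma), and by combination it was −1.12 (transgene-free), −1.37 and −1.06 (Kmt2c-KO, ethanol and tamoxifen), −0.57 and −0.42 (double-KO, ethanol and tamoxifen).

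Kmt2c fell by 0.60 on average (SE 0.07, adjusted p = 3.3e-08, limma), with values of −0.34 ± 0.10 for Kmt2d (adjusted p = 0.0050) and −0.30 ± 0.10 for Kmt2b (adjusted p = 0.0081). The values of Kmt2c were −0.45 in transgene-free, −0.74 and −1.10 in Kmt2c-KO and −0.61 and −0.11 in double-KO cells, ethanol before tamoxifen. Those of Kmt2d were −0.45, −0.95, −0.36, −0.24 and 0.29 in the same order, and those of Kmt2b were −0.15, −0.92, −0.60, −0.17 and 0.34. All 3 had their highest value in double-KO with tamoxifen. Without the library that stood apart, that value was 0.07 for Kmt2b (adjusted p = 0.87), −0.22 for Kmt2c (0.39) and 0.33 for Kmt2d (0.39). Kdm6a ranged over 25.5 to 45.5 CPM at 8 h and 17.7 to 25.2 CPM at 16 h. These ranges over the 30 libraries did not overlap, by a small gap, and the share of all genes so separated was not counted. The average of Kdm6a was −0.50 ± 0.06 (adjusted p = 7.2e-08, limma). Its values were −0.56 in transgene-free, −0.35 and −0.41 in Kmt2c-KO, and −0.27 (not called) and −0.88 in double-KO cells, ethanol before tamoxifen.

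Dpy30 rose most. At 8 h the transgene-free libraries held 202, 152 and 168 CPM, and over all 15 libraries the level was 75.8 to 220 CPM. At 16 h it was 199 to 440 CPM, with the double-KO libraries lowest. The average was 1.18 ± 0.11 (adjusted p = 1.4e-09, limma), and by combination the differences were 1.14 (transgene-free), 1.68 and 1.12 (Kmt2c-KO) and 0.84 and 1.09 (double-KO), ethanol before tamoxifen. Paxip1 rose by 0.74 ± 0.16 (adjusted p = 0.00022), from 3.50 to 29.7 CPM at 8 h to 20.03 to 33.7 CPM at 16 h, and Wdr5 by 0.60 ± 0.09 (adjusted p = 4.8e-06), from 58.0 to 142 CPM to 119 to 178 CPM. Both had libraries at 8 h within the 16 h range. Ncoa6 was at −0.07 ± 0.06 (adjusted p = 0.32) and Ash2l at 0.07 ± 0.06 (adjusted p = 0.34), the latter at 0.17 (adjusted p = 0.010) with median-of-ratios scaling and at −0.35 (adjusted p = 0.021) with the Rn45s covariate.

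**Figure D3:**
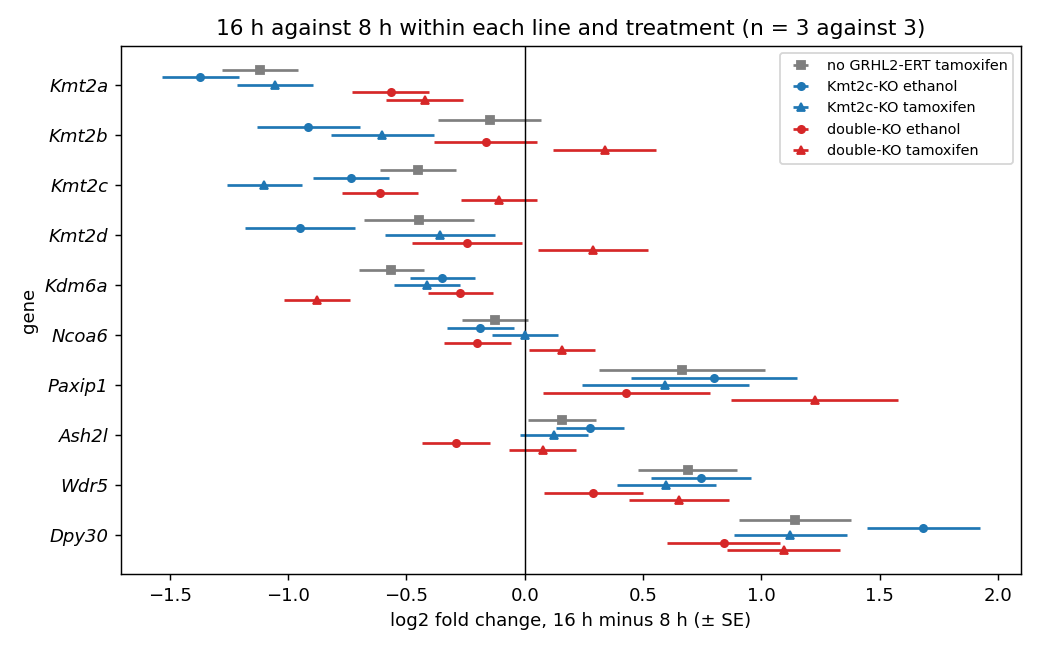
Log2 differences of 16 h minus 8 h (points, with SE bars, 3 against 3 libraries) for each combination of line and treatment. Kmt2a and Kdm6a lie below 0 and Dpy30, Wdr5 and Paxip1 above 0 in all 5 combinations, and the double-KO values of Kmt2a (−0.57 and −0.42) lie nearer to 0 than the other 3.

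Within single combinations the members called at 16 h against 8 h were 2 higher and 5 lower in Kmt2c-KO ethanol (45% of all genes called), 2 and 4 in Kmt2c-KO tamoxifen (38.3%), 1 and 2 in double-KO ethanol (21.3%), 3 and 2 in double-KO tamoxifen (35.7%) and 2 and 3 in transgene-free tamoxifen (36.6%). Several of these calls were lost when a single library was left out, many of them for any of several libraries. In Kmt2c-KO ethanol, Kdm6a was lost without replicate 1 or 2 of 8 h or 1 or 3 of 16 h (−0.33 to −0.30, adjusted p = 0.087 to 0.13) and Wdr5 without replicate 1 of 8 h (0.56, adjusted p = 0.050). In Kmt2c-KO tamoxifen, Kdm6a was lost without replicate 2 or 3 of 8 h or 1 of 16 h (−0.35 to −0.33, adjusted p = 0.084 to 0.10), Kmt2b without replicate 1 or 2 of 8 h or 2 or 3 of 16 h (−0.62 to −0.47, adjusted p = 0.054 to 0.14), and Wdr5 without replicate 3 of 8 h or any 1 of 16 h (0.50 to 0.63, adjusted p = 0.050 to 0.11). In double-KO ethanol, Kmt2a was lost without replicate 1 or 3 of 8 h or 2 of 16 h (−0.53 to −0.50, adjusted p = 0.056 to 0.057) and Dpy30 without replicate 3 of 8 h (0.55, adjusted p = 0.12). In double-KO tamoxifen, Kmt2a was lost without replicate 2 of 8 h or any 1 of 16 h (−0.45 to −0.14, adjusted p = 0.054 to 0.51), Paxip1 without replicate 2 of 8 h (0.53, adjusted p = 0.090), and Wdr5 without replicate 1 or 2 of 8 h or 1 or 3 of 16 h (0.39 to 0.65, adjusted p = 0.053 to 0.22). In transgene-free cells, Kmt2c was lost without replicate 1 or 2 of 8 h or 1 or 3 of 16 h (−0.45 to −0.35, adjusted p = 0.062 to 0.13).

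The members that fell have long transcripts. By the longest annotated transcript, Kmt2d has 19823 bases, Kmt2a 16470, Kmt2c 14967, Kmt2b 8469 and Kdm6a 5935, and the 3 that rose have 5850 (Paxip1), 2890 (Wdr5) and 789 bases (Dpy30). Ncoa6, with 7101 bases, and Ash2l, with 3702, were not called. Over 11955 genes with a length, 96.3% of those tested, the median difference between 16 h and 8 h went from −0.0081 in the shortest quintile of length through −0.0741, −0.0732 and −0.149 to −0.224 in the longest quintile, and Spearman's rho across genes was −0.170, as a description over genes that share libraries. All 5 members that fell lay below the median of the longest quintile. They were called on this same difference, so that position follows largely from the call. Ncoa6 (−0.07) and Paxip1 (0.74), in the same quintile, lay above its median. The part of length in these differences was not tested.

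**Figure D4:**
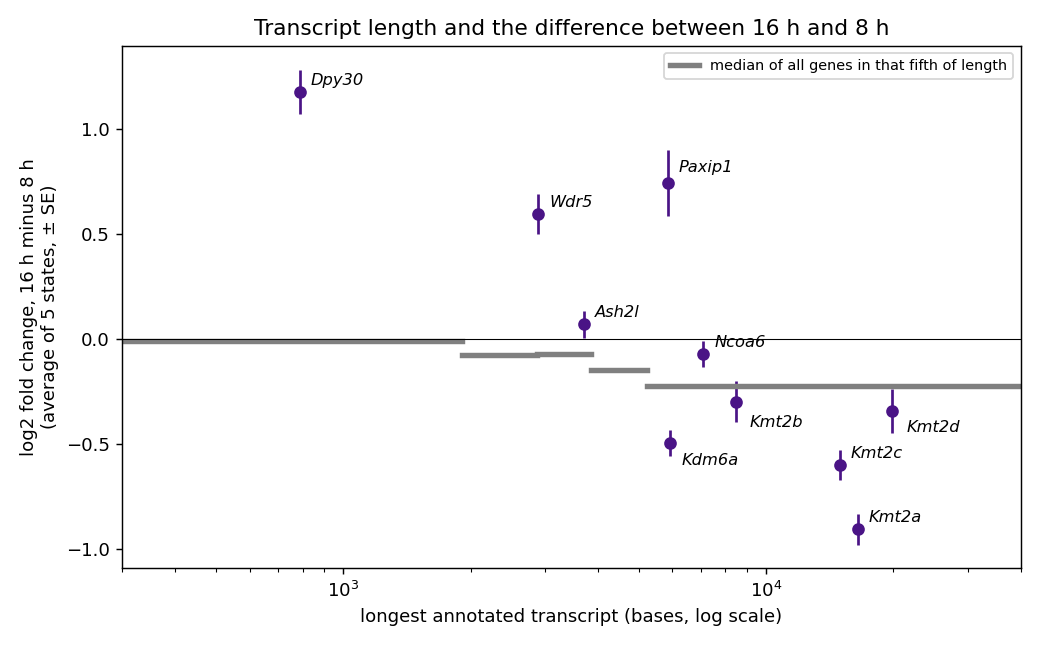
Average log2 difference of 16 h minus 8 h (points, SE bars) of the 10 members against the length of the longest annotated transcript (log axis), with grey bars at the median of all genes in each quintile of length. The medians go from −0.0081 to −0.224, while the members run from −0.91 (Kmt2a) to 1.18 (Dpy30).

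Over all genes, 41.6% fell and 27.2% rose between 8 h and 16 h on average, with a median of −0.10. Of the list of 15 other COMPASS subunits and related genes, 9 fell and 3 rose, with a median of −0.25. Kmt2e (−0.64), Setd1a (−0.77), Bod1l (−0.31) and Psip1 (−0.25) had the smallest adjusted p. Of the H3K4 demethylases and partners 6 of 9 fell and 1 rose, among them Kdm5b (−0.80), Rcor1 (−0.69), Kdm5c (−0.45) and Rcor2 (−0.37). Of the enhancer coactivators 7 of 12 fell and 1 rose, with a median of −0.34, among them the acetyltransferases Crebbp (−1.19) and Ep300 (−0.68), the bromodomain gene Brd3 (−0.65) and the cohesin loader Nipbl (−0.52).

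The change of the line difference between 8 h and 16 h was tested directly. It passed for the 4 catalytic genes and for no other member, 4 of 10 upward, where 11.9% of all genes were called upward and 15.9% in either direction (3.94% downward). The double-KO minus Kmt2c-KO difference, averaged over ethanol and tamoxifen, was greater at 16 h than at 8 h by 0.85 ± 0.22 for Kmt2b (log2, SE, adjusted p = 0.0074, limma), by 0.72 ± 0.16 for Kmt2a (adjusted p = 0.0025), by 0.68 ± 0.23 for Kmt2d (adjusted p = 0.047) and by 0.56 ± 0.16 for Kmt2c (adjusted p = 0.016). With median-of-ratios scaling, where 14.8% of all genes were called, Kmt2b (0.74, adjusted p = 0.014) and Kmt2a (0.60, adjusted p = 0.017) passed, Kmt2c (0.45, adjusted p = 0.050) and Kmt2d (0.57, adjusted p = 0.091) did not, and Ash2l passed downward (−0.43, adjusted p = 0.020) after −0.31 (adjusted p = 0.15) with total scaling. Without replicate 2 of double-KO tamoxifen 8 h, Ash2l was at −0.47 (adjusted p = 2.9e-05). The call on Kmt2d was lost in 15 of the 24 fits that left out 1 library of the 8 groups (0.53 to 0.70, adjusted p = 0.053 to 0.097). These were replicate 2 of Kmt2c-KO ethanol, 1 or 3 of Kmt2c-KO tamoxifen, 1 or 3 of double-KO ethanol and 3 of double-KO tamoxifen at 8 h, and any of Kmt2c-KO ethanol, 1 or 3 of Kmt2c-KO tamoxifen, 1 or 2 of double-KO ethanol and 1 or 3 of double-KO tamoxifen at 16 h. The other 6 members, by total scaling, lay between −0.44 (Dpy30) and 0.13 (Paxip1).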

How the data were processed

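Sequencing libraries of 3′ mRNA ends (QuantSeq FWD) were made by the authors from total RNA, per the labels' protocols. The submitters' processing notes name mm10, Salmon and DESeq2 1.34.0 without a role. The deposited values are on a log2 scale, log2(CPM + 0.125) as found from the values themselves. Of the low nonzero values, from which the step of 1 read was estimated, 94.7% to 97.6% per library came out as whole reads within 0.05 reads. Higher values were not checked in this way. Column names of the Kmt2c-KO lines were matched to samples by treatment, since the labels give ethanol only for the line with GRHL2-ERT. Names in the table and in the labels abbreviate these 2 lines differently, and 1 short name stands for different lines in them, so which columns hold the transgene-free line rests on treatment alone. The 10 columns of group means and 6 of differences, deposited as log2 values, were not used.

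Values were turned into CPM, and log2(CPM + 1) was fitted with limma 3.58.1 in R 4.3.3 (10 group means, 30 libraries, variance trend, robust moderation), for genes with a mean of at least 1 CPM in some group, which removed 14. The script was tested on simulated data. Depth limits the precision of each value, and reads lack molecular identifiers. The members and all gene lists were chosen with earlier results of these data known, and 1 gene of a list is not reported here. Named were all 10 members and, per list and comparison, up to 4 called genes with the smallest adjusted p, and the 3 genes most like Kmt2c and Kmt2d. Alternatives were other pseudocounts, no filter, median-of-ratios scaling, single contrasts, a replicate block, array weights and leaving out each library, and, chosen after seeing the data, leaving out the library that stood apart and an Rn45s covariate. Same-numbered libraries were not paired: 16 of 135 correlations of their deviations were over 0.1.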

Additional observations from a re-analysis of the deposited data

Results flagged for a closer look

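The double-KO minus Kmt2c-KO difference was not the same at 16 h and at 8 h for 9 genes among the members and the lists of their neighbours, by the limma test of that change itself (Benjamini-Hochberg, two-sided). Among the members these were the 4 catalytic genes, Kmt2b at 0.85, Kmt2a at 0.72, Kmt2d at 0.68 and Kmt2c at 0.56 on the log2 scale, described above. Among their neighbours, the acetyltransferase Ep300 was at 0.64 (adjusted p = 0.00032), the catalytic gene Setd1a at 0.55 (0.0065), Kmt2e at 0.60 (0.00012), the corepressor Rcor1 at 0.51 (0.027) and the Mediator subunit Med12 at 0.67 (0.047). With median-of-ratios scaling the calls on Kmt2c (adjusted p = 0.050, limma), Kmt2d (0.091), Rcor1 (0.10) and Med12 (0.072) were lost. The 9 were 4 of 10 members, 2 of 15 other COMPASS subunits and related genes, 1 of 9 H3K4 demethylases and partners and 2 of 12 enhancer coactivators. Neither of the 2 other H3K27 demethylase genes was called. The value was above 0 for all 9, and 11.9% of all genes were called upward against 3.94% downward. In the marker lists the same test called 4 of 10 naive ESC genes downward, 1 trophoblast gene upward (Tfap2c, 1.75) and 1 downward (Eomes, −1.14), and 1 primitive endoderm gene upward (Dab2, 1.39).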

How the results depend on the processing

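Of the tests of the 10 members in 20 comparisons, some of them averages of others, 64 passed, of which 17 were lost without some library. The share of all genes called ran from 0% to 72.4% over these comparisons. Of the 64, median-of-ratios scaling left 50, fits on the libraries of a contrast alone 55, array weights 56, a pseudocount of 0.1 63, leaving out the library that stood apart 60, and a pseudocount of 5, no filter and the replicate block all 64. Deviations of same-numbered libraries correlated at −0.577 to 0.389 with a median of −0.0043, and the block on replicate number changed no call on a member. The Rn45s covariate left 46 and lost 12, and it turned 6: Kmt2a in double-KO tamoxifen between 8 h and 16 h (0.021), Paxip1 there (−0.22) and on average (−0.48), and Wdr5 in Kmt2c-KO ethanol (−0.083), in double-KO tamoxifen (−0.053) and on average (−0.00076). Among neighbours it turned Bod1 in double-KO tamoxifen (−0.046) and Uty on average (−0.020). The Rn45s share did not overlap between the times, so for time the covariate and the hour cannot be told apart. The cause was not tested.

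The share of all genes called in each fit stands in brackets. Array weights of double-KO tamoxifen 8 h were 1.6e-05 for replicate 1, 0.087 for replicate 2 and 0.54 for replicate 3. In the weighted fit that group thus rested almost wholly on replicate 3, while replicate 2 is the library that stood apart above. Array weights gave 7 called members for the line difference in ethanol at 8 h (55.5%), 2 in tamoxifen at 8 h (16.4%), 1 for tamoxifen in Kmt2c-KO at 8 h (8.99%), and, for 16 h against 8 h, 8 in double-KO ethanol (42.1%) and 0 in double-KO tamoxifen (0.62%). Fits on the libraries of the contrast alone gave 1 for the line in tamoxifen at 8 h (20.98%) and 0 for time in double-KO tamoxifen (0.0725%), where leaving out the library that stood apart gave 3 (15.7%). The Rn45s covariate gave 2 for the line in tamoxifen at 8 h (40.3%), 1 for tamoxifen in Kmt2c-KO at 8 h (3.58%), 4 for time in Kmt2c-KO ethanol (17.7%) and 0 in double-KO tamoxifen (1.31%).

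Leaving out each library in turn gave 4 to 5, 5 to 6, 3 to 4, 5 to 6 and 5 to 7 called members for the line (ethanol 8 h and 16 h, tamoxifen 8 h and 16 h, average). With all libraries, 49.4%, 50%, 44.5%, 51.3% and 72.4% of all genes were called in these. For tamoxifen it gave 0 to 1 (Kmt2c-KO 8 h), 0 to 6 (double-KO 8 h) and 0 at 16 h in both lines. For the difference in response it gave 0 to 5 at 8 h and 0 at 16 h, and for GRHL2-ERT against none 0 to 1 and 0. For time it gave 5 to 7, 4 to 5, 1 to 3, 3 to 5, 4 to 5 and 8 (Kmt2c-KO ethanol and tamoxifen, double-KO ethanol and tamoxifen, transgene-free, average), and 3 to 5 for the change of the line difference. The shares of all genes with all libraries were 45%, 38.3%, 21.3%, 35.7%, 36.6% and 68.9%, and 15.9% for that change. Members near 10 CPM, such as Kmt2d and Kmt2b, rest on fewest reads.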

Other observations

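Y-linked genes, 2 of which (Uty and Kdm5d) are relatives of the members, differed between the lines, and Ddx3y and Eif2s3y were added after their values were seen. Uty, the Y copy of Kdm6a, was at 9.26 to 22.1 CPM in the 12 double-KO libraries, 1.87 to 3.75 CPM in the 12 Kmt2c-KO libraries and 4.07 to 8.11 CPM in the 6 transgene-free ones. Kmt2c-KO and transgene-free cells under tamoxifen differed in Uty by −0.81 at both times (adjusted p = 0.018 at 8 h and 0.047 at 16 h, limma). Kdm5d, an H3K4 demethylase gene, was at 1.42 to 6.19 CPM in double-KO and was 0 in 11 of 12 Kmt2c-KO libraries. Ddx3y was at 107 to 153 CPM in double-KO, 18.2 to 26.2 CPM in Kmt2c-KO and 44.5 to 64.9 CPM in transgene-free libraries, and Eif2s3y at 19.1 to 74.2, 0 to 1.35 and 1.24 to 5.07 CPM. The 3 lines did not overlap in Uty or Ddx3y, and the share of all genes for which that holds was not counted.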
